A study of Homo sapiens with 12 samples.

Results

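KHSRP, the KH-type splicing regulatory protein, was examined together with 9 genes for other proteins that bind RNA and act on mRNA stability or splicing. These were its 2 family members FUBP1 and FUBP3, the zinc finger proteins ZFP36, ZFP36L1 and ZFP36L2, the stabilizing protein ELAVL1 (HuR), HNRNPD (AUF1), and the polypyrimidine tract binding proteins PTBP1 and PTBP3. The genes were found by symbol in the authors' tables and make up 10 of the 14862 genes of the normalized count table. KHSRP was picked because of its values in these libraries, so its levels are given as a description with no test. The other 9 genes were chosen by family or function, with earlier results of these data known. Their p-values and counts therefore do not come from a set chosen blind to the data. All 10 passed the filter on low values.

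Many short-lived mRNAs carry AU-rich elements in their 3′ untranslated region (3′ UTR). KHSRP and the ZFP36 proteins bind such elements and bring in enzymes that shorten the poly(A) tail and degrade the mRNA, while ELAVL1 competes for similar sites and usually stabilizes the mRNA, and HNRNPD can do either. KHSRP also binds the terminal loop of some microRNA precursors and promotes their processing. The PTBP proteins bind pyrimidine-rich sequence, repress exons and act on the stability and translation of some mRNAs.

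The samples were hTERT-RPE1 cells, a human line of retinal pigment epithelium that telomerase has made immortal, labelled as parental. Groups were siNeg (negative-control siRNA, genotype given as wild type), siCENPF, siFOXM1 and siCENPF+siFOXM1 (both siRNAs), with siRNA at 20 nM and collection after 48 hours. CENPF encodes a kinetochore protein, and FOXM1 encodes a forkhead factor that drives genes of late cell cycle phases. PolyA RNA of 3 libraries per group, numbered 1 to 3, was sequenced to between 13671250 and 35411230 reads in genes, of which KHSRP took 2094 to 12041. No source used here gives the siRNA sequences, whether each was a pool, or the dose of each siRNA in the double knockdown. With no second reagent per target, an effect of the loss of FOXM1 and an effect of the reagent on other transcripts cannot be told apart. Nothing says that replicates were separate cultures, so p-values measure only the spread between these samples.

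Both targets were lower in every library that received their siRNA: CENPF stood at 10.8% and 15.9% of siNeg with siCENPF and with both siRNAs, and FOXM1 at 14.9% and 17.7% with siFOXM1 and with both. VIM, KRT8, KRT18 and CDH2 were expressed in all libraries. The other simple epithelium markers examined, KRT19, CDH1 and EPCAM, did not pass 0.0379 FPKM. The defining pigment epithelium genes RPE65 and TYR were listed at 0 FPKM in all 12 libraries, and RLBP1 and TTR did not pass 0.0371 FPKM. Of the other pigment epithelium markers, PMEL, MITF and OTX2 were detected in every library, between 0.159 and 1.28 FPKM. BEST1 was listed at 26.9 to 62.4 FPKM. Whether those reads came from BEST1 or from a gene overlapping it was not tested, so its level is not read as expression of a pigment epithelium gene. In bulk RNA, fewer cells expressing a gene and less of its RNA per cell cannot be told apart. Number 2 was the lowest library of every group for KHSRP, FUBP1, FUBP3, ZFP36, PTBP1 and PTBP3, and the highest for ZFP36L2. For HNRNPD number 3 was the highest. Values that rest on such libraries are given below.

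Whether the binding proteins' own mRNAs carry AU-rich words was read from the annotation (GENCODE v29, hg38). Pyrimidine-rich sequence, which the PTBP proteins bind, was not searched. The nonamer TTATTTATT, a core sequence of AU-rich elements, was found in the annotated 3′ UTR of 4 of the 10 genes (40%), compared with 1246 of 11802 tested genes (10.6%) and 14 of 33 measured AU-rich mRNAs of textbook standing (42.4%). The 4 sites are shown because they mark the members whose own mRNAs hold this kind of word; each line gives the gene strand of hg38, 5′ to 3′, with the nonamer in capitals.
ELAVL1, chr19:7961827-7961856, minus strand: atttatgtatTTATTTATTgaagtgtgaaa
ZFP36, chr19:39409196-39409225, plus strand: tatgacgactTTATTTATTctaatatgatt
ZFP36L1, chr14:68788076-68788105, minus strand: aactgttggaTTATTTATTttagaaattcc
ZFP36L2, chr2:43223447-43223476, minus strand: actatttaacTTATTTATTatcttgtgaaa
All ZFP36 family members and ELAVL1 thus carried the nonamer, and it was not in the 3′ UTRs of FUBP1, FUBP3, HNRNPD, KHSRP, PTBP1 or PTBP3. A gene was counted, here and in the shares, when any of its transcripts matched. These were 1 of 4 transcripts with a 3′ UTR for ELAVL1, 2 of 3 for ZFP36, 2 of 3 for ZFP36L1 and 1 of 1 for ZFP36L2. The KHSRP 3′ UTR (764 bases in KHSRP-201) held 0 copies of the shorter word ATTTA. That of FUBP1 (468 bases in FUBP1-202) held 1, and that of PTBP3 (6135 bases in PTBP3-202) held 17. Of the 4 genes with the nonamer, the longest 3′ UTR was 4904 bases for ELAVL1, 713 for ZFP36, 2828 for ZFP36L1 and 1917 for ZFP36L2. The median of the longest 3′ UTR of the tested genes was 1412 bases. A match is a stretch of letters and not a measured binding site.

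Per length, KHSRP and PTBP1 were the highest of the 10 genes in siNeg. KHSRP stood at 69.9 ± 4.10 reads per kilobase of merged exons, scaled to library depth as in RPKM (SD, n = 3), PTBP1 at 68.4 ± 4.95 and HNRNPD at 57.4 ± 6.34. KHSRP and PTBP1 did not differ beyond their spread. ZFP36L1 followed at 45.5 ± 3.97, then ZFP36L2 at 27.0 ± 7.13 and FUBP1 at 24.4 ± 1.57, whose ranges overlapped. ELAVL1 (18.8 ± 1.47) and FUBP3 (18.3 ± 0.337) also overlapped. PTBP3 stood at 12.1 ± 0.974, ZFP36 at 4.53 ± 1.19, and PTBP2, the neuronal paralog that is not among the 10, at 0.922 ± 0.190. The authors' deposited FPKM puts PTBP1 lower, at 16.7, after KHSRP at 24.7, HNRNPD at 23.3, ZFP36L1 at 20.9 and ZFP36L2 at 18.7. The length in the authors' tables is longer than the whole genomic span of the gene for 14.6% of genes, KHSRP and PTBP1 among them, and for 8 of the 11 genes given here it equals the exon lengths summed over all annotated transcripts. The FPKM of a gene with many transcripts is therefore low relative to its reads, and levels between genes were compared on merged exons.

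**Figure D1:**
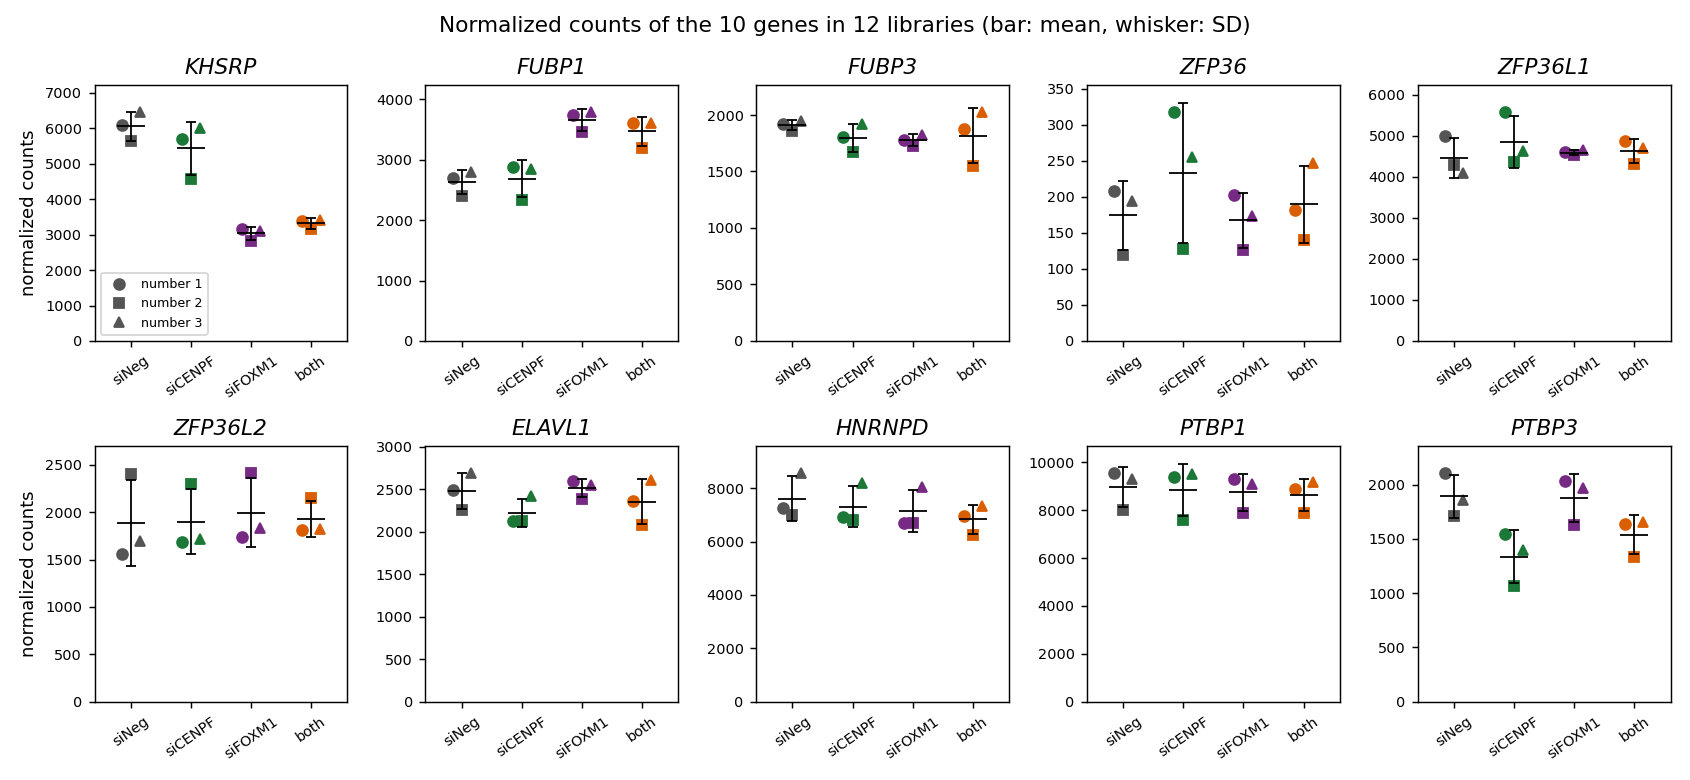
Normalized counts of the 10 genes (y axis, from 0) in the 4 groups (x axis; "both" is siCENPF+siFOXM1), with 1 point per library, its shape the replicate number, and a bar and whisker for mean and SD. The 6 libraries that received siFOXM1 lie between 2819 and 3412 for KHSRP, below the other 6, and between 3195 and 3782 for FUBP1, above the other 6.

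Values by library are the authors' normalized counts, which are scaled to similar library sizes. Differences are log2 fold changes of normalized count + 1 with limma, a linear model fitted to all genes, and a gene is called when its p, adjusted over all 14857 genes, is under 0.05. Because same-numbered libraries deviated together, the adjusted p with the replicate number as a further model term (the block) is given where it changes a call.

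KHSRP (ENSG00000088247, hg38 chromosome 19, 6413348 to 6424794, minus strand) was lower in every library that received siFOXM1. It stood at 6097, 5633 and 6452 normalized counts under siNeg (numbers 1 to 3, as in all such lists) and at 5704, 4585 and 6019 under siCENPF. Under siFOXM1 the counts were 3173, 2819 and 3115, and under both siRNAs 3397, 3149 and 3412. The 6 libraries with siFOXM1 did not overlap the 6 without it, whereas siCENPF overlapped siNeg and the double knockdown overlapped siFOXM1.

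Mean KHSRP was 6061 ± 411 in siNeg, 5436 ± 754 with siCENPF, 3036 ± 190.0 with siFOXM1 and 3320 ± 148 with both (SD, n = 3 libraries). With siFOXM1 it was 50.1% of siNeg, a log2 fold change of -0.997 (SE 0.10), and with both 54.8%, a log2 fold change of -0.87 (SE 0.10). The log2 ratios of same-numbered libraries were -0.94, -0.999 and -1.05 with siFOXM1 and -0.84, -0.84 and -0.92 with both, so the difference from siNeg varied little between numbers. Against siCENPF, the double knockdown had log2 ratios of -0.75, -0.54 and -0.82. Of the 14857 genes fitted, 35 had a lower log2 fold change than KHSRP with siFOXM1 (0.236%) and 64 with both siRNAs (0.431%). The authors' deposited table gives KHSRP a log2 fold change of -0.999 with siFOXM1 and -0.87 with both. KHSRP exons share bases with no other annotated gene except the 22 bases of the microRNA MIR3940, on the same strand.

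Between siCENPF and siNeg, and between the double knockdown and siFOXM1, KHSRP differed little. The log2 ratios of siCENPF to siNeg were -0.10, -0.30 and -0.10, and those of the double knockdown to siFOXM1 were 0.10, 0.16 and 0.13. The first are negative and the second positive in all 3 pairs, the groups overlapped in both comparisons, and each ratio is small beside those with siFOXM1.

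FUBP1 (ENSG00000162613, chromosome 1, 77944055 to 77979110, minus strand) encodes the far upstream element binding protein, a KH domain relative of KHSRP known as an activator of MYC transcription. Unlike KHSRP, it was higher in the libraries with siFOXM1. It stood at 2695, 2403 and 2795 normalized counts under siNeg and at 2873, 2329 and 2841 under siCENPF. Under siFOXM1 the counts were 3739, 3449 and 3782, and under both siRNAs 3608, 3195 and 3605. The 6 libraries with siFOXM1 all exceeded the 6 without it, and siCENPF overlapped siNeg.

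FUBP1 rose from 2631 ± 204 to 3657 ± 181 with siFOXM1 (log2 fold change 0.48, SE 0.10, 95% confidence interval 0.27 to 0.69, limma adjusted p = 0.0458, n = 3 libraries per group). It was higher in 3 of 3 pairs of same-numbered libraries, by 0.47, 0.52 and 0.44. This call lies at the threshold: the limma adjusted p was 0.0170 to 0.216 when 1 library was left out, and lay above 0.05 without any 1 siNeg library, without any 1 siFOXM1 library, without siCENPF 3, and without number 1 or 3 of the double knockdown. With the replicate number as a block the limma adjusted p was 2.50e-07. The authors' deposited table gives a log2 fold change of 0.474 and an adjusted p of 0.0504.

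With both siRNAs FUBP1 stood at 3469 ± 238, a log2 fold change from siNeg of 0.40 (SE 0.10, limma adjusted p = 0.143), which passed with the block (limma adjusted p = 4.90e-06) and in DESeq2 (adjusted p = 0.0167). The difference did not pass in edgeR (adjusted p = 0.131), and the authors' deposited edgeR table gives an adjusted p of 0.271. The paired log2 ratios were 0.42, 0.41 and 0.37. Against siCENPF the value was 0.38 (SE 0.10, limma adjusted p = 0.711, and 4.18e-05 with the block). With siCENPF alone it was 0.02 (SE 0.10, 95% confidence interval -0.19 to 0.23, limma adjusted p = 1.00). Over the 12 libraries KHSRP and FUBP1 had a Pearson correlation of -0.788, given as a description: the libraries form separate groups with and without siFOXM1 and share replicate numbers.

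FUBP3 (chromosome 9, 130578965 to 130638352, plus strand), the other relative, stood at 1924, 1859 and 1944 normalized counts under siNeg and at 1781, 1727 and 1826 under siFOXM1. All 3 siFOXM1 libraries lay below all 3 siNeg libraries, by paired log2 ratios of -0.11, -0.11 and -0.09, but the difference did not pass the test (log2 fold change -0.10, SE 0.10, limma adjusted p = 0.900). Under siCENPF its counts were 1806, 1671 and 1921, and under both siRNAs 1874, 1551 and 2023, overlapping siNeg in each case. The 3 family members thus had log2 fold changes with siFOXM1 of -0.997, 0.48 and -0.10.

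Of the 9 genes beside KHSRP, limma called 1, FUBP1, with siFOXM1, where it called 0.66% of all genes, and 0 with siCENPF (0.337% of all genes) and 0 with both (0.458%). At an unadjusted p below 0.05, 1 of the 9 was counted in each of the 3 comparisons, where 5.53%, 7.77% and 7.36% of all genes were. EdgeR called 0, 1 and 0 of the 9 with siCENPF, siFOXM1 and both (0.337%, 0.68% and 0.467% of its genes), DESeq2 0, 1 and 1 (1.01%, 1.68% and 1.38% of the genes it gave an adjusted p), and limma with the replicate block 1, 1 and 2 (4.52%, 8.72% and 7.9% of all genes). Groups did not overlap for 1 of the 10 genes with siCENPF (PTBP3; 9.31% of all genes), 3 with siFOXM1 (KHSRP, FUBP1 and FUBP3; 13.4%) and 3 with both (KHSRP, FUBP1 and PTBP3; 12.9%), and nothing is read from KHSRP, which was chosen on these values. Against the single siRNAs, limma called 0 of the 9 with both siRNAs compared with siCENPF (0.0808% of all genes; 1 with the block, 1.46%) and 0 compared with siFOXM1 (0.00673%; 1 with the block, 0.296%). For the interaction limma called 0 of the 9 and 0% of all genes, and with the block 0 of the 9 and 0.841%. At an unadjusted p below 0.05, limma counted 1, 0 and 0 of the 9 in these last 3 comparisons (2.95%, 1.97% and 2.38% of all genes). EdgeR called 0 of the 9 in each (0.0756%, 0.00687% and 0% of its genes), as did DESeq2 (0.273%, 0.0275% and 0.147%). For the interaction over all genes, 353 had an unadjusted p below 0.05 in limma, edgeR called 0 and DESeq2 21. The comparisons with siNeg share its libraries. The median log2 fold change of the 10 genes was -0.04, -0.02 and -0.06 with siCENPF, siFOXM1 and both, and that of all genes was 0.00 each time.

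**Figure D2:**
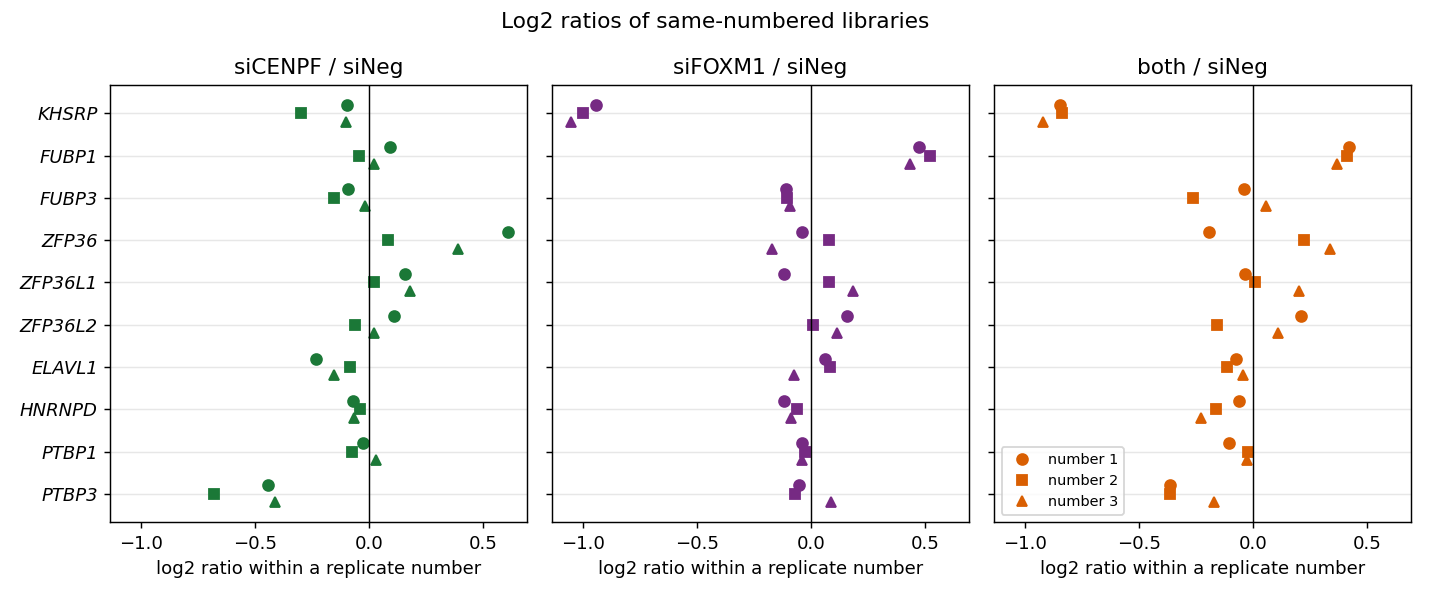
Log2 ratios of same-numbered libraries (x axis) for the 10 genes (y axis), with 1 panel per comparison against siNeg and 1 point shape per replicate number. KHSRP lies at -0.94 to -1.05 with siFOXM1, FUBP1 at 0.44 to 0.52, and PTBP3 at -0.41 to -0.68 with siCENPF.

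PTBP3 (ENSG00000119314, chromosome 9, 112217716 to 112333667, minus strand), also known as ROD1, had lower counts with siCENPF, a difference called only with the replicate block. It stood at 2106, 1710.4 and 1858 normalized counts under siNeg and at 1549, 1066 and 1395 under siCENPF. Under siFOXM1 the counts were 2032, 1627 and 1972, and under both siRNAs 1638, 1330.1 and 1652. The siCENPF libraries and those of the double knockdown lay below every siNeg library, and siFOXM1 overlapped siNeg.

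The mean was 1891 ± 199.8 in siNeg and 1337 ± 246 with siCENPF (log2 fold change -0.51, SE 0.14, 95% confidence interval -0.82 to -0.20). It was lower in 3 of 3 pairs of libraries, by -0.44, -0.68 and -0.41. The call rested on the pairing: the limma adjusted p was 0.296 without the replicate block and 3.01e-06 with it, while edgeR gave an adjusted p of 0.301 and DESeq2 one of 0.0974. The authors' deposited edgeR table gives a log2 fold change of -0.506 and an adjusted p of 0.953. In the blocked fit with 1 number left out of every group, the log2 fold change of PTBP3 was -0.43 to -0.56 and the limma adjusted p at most 0.000781.

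With both siRNAs the PTBP3 mean was 1539.9 ± 182, a log2 fold change of -0.30 (SE 0.14, limma adjusted p = 0.705, and 0.00217 with the block). Without number 1 in every group the blocked limma adjusted p was 0.0762. Compared with siFOXM1 alone, the double knockdown differed by -0.31, -0.29 and -0.26 (limma adjusted p = 1.00, and 0.0391 with the block). With siFOXM1 alone PTBP3 had a log2 fold change of -0.01 (SE 0.14, 95% confidence interval -0.32 to 0.30). Whether the siCENPF difference itself was smaller in the presence of siFOXM1 did not pass the test (interaction 0.23, SE 0.20, limma adjusted p = 1.00, and 0.393 with the block).

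PTBP1 (chromosome 19, 797075 to 812327, plus strand), the widely expressed member of this family, stood at 9547, 7998 and 9318 normalized counts under siNeg and at 9374, 7587 and 9526 under siCENPF. Under siFOXM1 the counts were 9282, 7864 and 9073, and under both siRNAs 8868, 7873 and 9163, so all groups overlapped. Its log2 fold changes were -0.02, -0.03 and -0.05 with siCENPF, siFOXM1 and both (SE 0.11 each, limma adjusted p at least 0.973). PTBP2 stood at 192, 271 and 213 under siNeg and at 199.7, 290.0 and 236 under siCENPF, a log2 fold change of 0.10 (SE 0.19, limma adjusted p = 1.00). Neither paralog passed the test in any of the 3 comparisons, with or without the block.

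The ZFP36 genes encode tristetraprolin (ZFP36) and its relatives, which recruit the CCR4-NOT deadenylase to AU-rich mRNAs. ZFP36 itself lies on chromosome 19 (39406813 to 39409412, plus strand) and stood at 208, 119.8 and 195 normalized counts under siNeg and at 317, 127 and 256 under siCENPF. Under siFOXM1 the counts were 202, 127 and 173, and under both siRNAs 182, 140.0 and 246. The groups overlapped, and the log2 fold changes of 0.36, -0.04 and 0.12 had an SE of 0.34. In the fit without the block its intervals were the widest of the 10 genes, -0.39 to 1.11 with siCENPF and -0.79 to 0.70 with siFOXM1. With the block the SE was 0.15, and the limma adjusted p was 0.186 with siCENPF, 0.907 with siFOXM1 and 0.695 with both.

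ZFP36L1 (chromosome 14, 68787660 to 68796253, minus strand) stood at 4999.5, 4291 and 4093 normalized counts under siNeg and at 4603, 4526 and 4648 under siFOXM1, a log2 fold change of 0.05 (SE 0.10, 95% confidence interval -0.17 to 0.27). Its counts were 5573, 4362 and 4631 under siCENPF and 4876, 4321 and 4709.7 under both siRNAs, log2 fold changes of 0.12 and 0.06. ZFP36L2 (chromosome 2, 43222402 to 43226609, minus strand) stood at 1561, 2399 and 1692 under siNeg and at 1742, 2411 and 1832 under siFOXM1, a log2 fold change of 0.09 (SE 0.18, interval -0.29 to 0.48). Its counts were 1684, 2298 and 1716 under siCENPF and 1809, 2149 and 1825 under both siRNAs, log2 fold changes of 0.02 and 0.05. Number 2 was the highest library of every ZFP36L2 group, and the groups overlapped. No ZFP36 gene passed the test in these comparisons, with or without the block.

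ELAVL1 (chromosome 19, from 7958579, minus strand) stood at 2489.8, 2257 and 2689.8 normalized counts under siNeg and at 2122, 2129 and 2415 under siCENPF. Under siFOXM1 the counts were 2595, 2388 and 2556, and under both siRNAs 2364, 2084 and 2609. The log2 fold changes were -0.16, 0.02 and -0.08 (SE 0.10 each). With siCENPF it was lower in 3 of 3 pairs, by -0.23, -0.08 and -0.16, and did not pass with the block either (limma adjusted p = 0.113). HNRNPD (chromosome 4, 82352498 to 82374503, minus strand) stood at 7250.4, 6997 and 8562 under siNeg and at 6945, 6247 and 7324 under both siRNAs, a log2 fold change of -0.15 (SE 0.11, limma adjusted p = 0.877, and 0.0542 with the block). Its counts were 6909.9, 6815 and 8191.5 under siCENPF and 6678, 6705 and 8048 under siFOXM1, log2 fold changes of -0.06 and -0.09. Number 3 was the highest HNRNPD library of every group, and the groups overlapped. The exons of ELAVL1 and HNRNPD share 528 and 203 bases with genes annotated on the opposite strand, and no source used here says whether counting used strand.

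Apart from KHSRP and FUBP1, the 8 other genes had limma confidence intervals with siFOXM1 that reached no further than -0.79 and 0.70 (ZFP36), and for ELAVL1 no further than -0.19 and 0.23. Those intervals are from the fit without the block, whose SE was larger than with it for ZFP36 and ELAVL1. They bound the differences and do not show that the genes were unaffected.

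**Figure D3:**
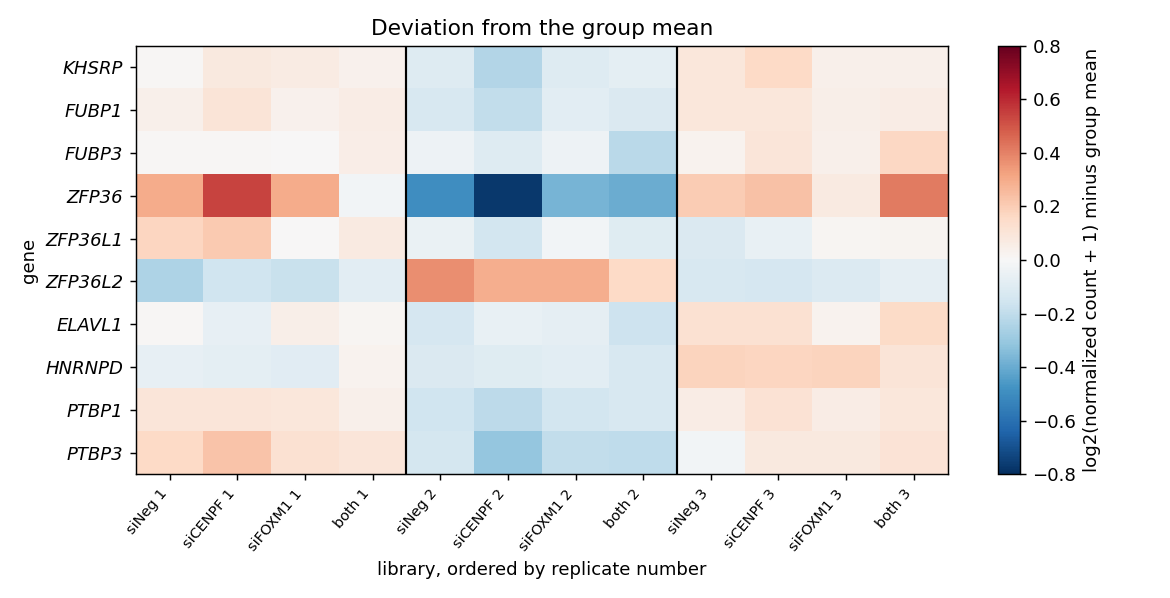
Deviation of log2(normalized count + 1) from the group mean (colour, from -0.8 to 0.8) for the 10 genes (rows) in the 12 libraries (columns, ordered by replicate number). The number 2 libraries are low for ZFP36, by -0.51 on average, and high for ZFP36L2, by 0.28.

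Within groups, several members differed by replicate number. The 4 number 2 libraries were below their group means for 9 of the 10 genes on average, and above them for ZFP36L2. The mean deviations on the log2 scale were -0.51 for ZFP36, 0.28 for ZFP36L2, -0.21 for PTBP3 and -0.16 for PTBP1. Across the 12 libraries ZFP36L2 had a Pearson correlation of -0.954 with PTBP1 and of -0.852 with ZFP36, and PTBP1 one of 0.874 with ZFP36, again as a description over libraries that share numbers. In size these 4 deviations exceeded the log2 fold changes with siFOXM1 of the same genes (-0.04, 0.09, -0.01 and -0.03). The same held for ELAVL1, HNRNPD and ZFP36L1, and not for KHSRP, FUBP1 or FUBP3. The labels do not say what a number stands for.

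Among the genes whose levels were most like those of KHSRP over the 12 libraries, out of 10317 ranked genes with a mean of at least 100 normalized counts, were FOXM1 itself (Pearson r = 0.979), ITFG2 (0.967), FKBP5 (0.959) and THOC7 (0.956). All share the division into 6 libraries with siFOXM1 and 6 without. THOC7, a component of the THO complex in mRNA export, stood at 1049.9 ± 106 normalized counts in siNeg and 456 ± 75.7 with siFOXM1. FKBP5, a co-chaperone of the glucocorticoid receptor, stood at 1117 ± 157 and 599.9 ± 123. The span of ITFG2 overlaps that of FOXM1 on the opposite strand, so its reads and those of FOXM1 may not be separable.

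The AU-rich mRNAs are the textbook targets of KHSRP, the ZFP36 proteins and ELAVL1. Of 33 measured, limma called 0 with siCENPF, 0 with siFOXM1 and 0 with both siRNAs (1, 0 and 1 at an unadjusted p below 0.05, and 0 by edgeR and DESeq2 each time). With the replicate block 2 were higher with siCENPF. With siFOXM1 4 were higher and 3 lower, and with both 4 were higher and 4 lower. The blocked fit called 4.52%, 8.72% and 7.9% of all genes in the 3 comparisons, and 5.53%, 7.77% and 7.36% had an unadjusted limma p below 0.05. The median log2 fold change of the list was 0.04, -0.06 and -0.02, beside 0.00 for all genes.

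IL1B, the cytokine interleukin-1 beta, stood at 805, 717 and 361 normalized counts under siNeg and at 1721, 1323 and 829 under siFOXM1. Under siCENPF the counts were 2156, 1530.1 and 734, and under both siRNAs 1809, 1629 and 894. Each siRNA library was above the siNeg library of its number, number 3 was lowest in every group, and siCENPF overlapped siNeg while the other 2 groups did not. The log2 fold changes were 1.18, 1.06 and 1.22 with siCENPF, siFOXM1 and both (SE 0.48, limma adjusted p = 0.820, 0.650 and 0.605). With the block the limma adjusted p was 7.23e-10, 3.03e-09 and 3.71e-10. KHSRP stood at 89.2%, 50.1% and 54.8% of siNeg in the same comparisons. Whether the levels of KHSRP and IL1B are related was not tested, and mRNA stability was not measured.

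With siFOXM1 the AU-rich mRNAs called higher in the blocked fit were IL1B, VEGFA (log2 fold change 0.62, blocked limma adjusted p = 5.74e-05), PLAU (0.36, 0.000150) and LIF (0.21, 0.0287). Those called lower were JUN (-0.25, 0.000988), CCND1 (-0.22, 0.00208) and IER2 (-0.22, 0.0266). They encode a vascular growth factor, the urokinase protease, a cytokine of the interleukin-6 family, 2 early response regulators (JUN, IER2) and cyclin D1. BCL2, an inhibitor of apoptosis, had a log2 fold change of -0.06 with siFOXM1 and -0.40 with both (limma adjusted p = 0.699, and 0.0441 with the block). The list thus moved in both directions.

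**Figure D4:**
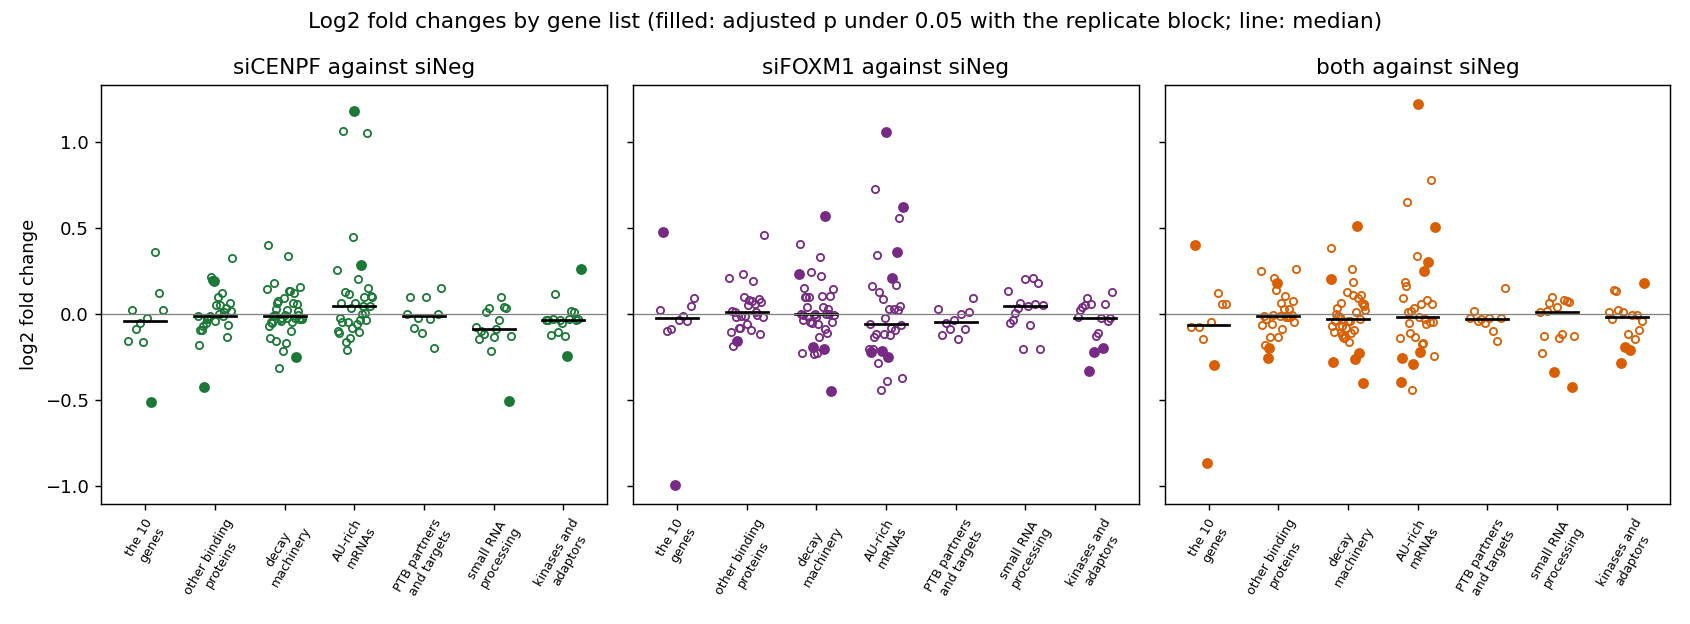
Log2 fold changes against siNeg (y axis) of the 10 genes and of the measured genes of 6 lists (x axis), 1 point per gene, filled where the limma adjusted p with the replicate block was under 0.05, with a line at each median. List medians lie between -0.09 and 0.04; IL1B is the highest filled point of each panel, and KHSRP, whose mark is a description, the lowest with siFOXM1 and with both.

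Among 27 other proteins that bind AU-rich or other 3′ UTR sequence, limma called 0 in each of the 3 comparisons (1, 1 and 2 at an unadjusted p below 0.05, 0 by edgeR, and 1, 0 and 0 by DESeq2). The blocked fit called 2, 1 and 3. Of all genes, 5.53%, 7.77% and 7.36% had an unadjusted limma p below 0.05, and the block called 4.52%, 8.72% and 7.9%. HNRNPA0, an hnRNP that binds AU-rich mRNAs, stood at 3625 ± 505 normalized counts in siNeg and 2690.0 ± 269 with siCENPF, a log2 fold change of -0.43 (SE 0.11, limma adjusted p = 0.223, and 1.46e-05 with the block). It was -0.26 with both (blocked limma adjusted p = 0.00383) and -0.02 with siFOXM1.

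The deadenylation, decapping and decay machinery was represented by 39 measured genes, of which limma called 0 in each comparison (4, 7 and 5 at an unadjusted p below 0.05, 0 by edgeR and DESeq2). The blocked fit called 1, 5 and 6. The shares of all genes were 5.53%, 7.77% and 7.36% at the unadjusted p and 4.52%, 8.72% and 7.9% in the blocked fit. TOB2, which recruits the CCR4-NOT deadenylase, stood at 982 ± 122 normalized counts in siNeg, 717 ± 68.5 with siFOXM1 and 742 ± 75.3 with both. Its log2 fold changes were -0.45 with siFOXM1 (SE 0.12, limma adjusted p = 0.183, and 5.59e-05 with the block) and -0.40 with both (0.350, and 0.000296 with the block). PARN, the poly(A)-specific ribonuclease that acts with KHSRP, had log2 fold changes of -0.25, -0.11 and -0.23 with siCENPF, siFOXM1 and both (SE 0.08 each, blocked limma adjusted p = 0.0321, 0.361 and 0.0437).

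Of 15 genes of small RNA processing limma called 0 in each comparison (1, 0 and 1 at an unadjusted p below 0.05, 0 by edgeR and DESeq2), and the blocked fit 1, 0 and 2. Over all genes the unadjusted shares were 5.53%, 7.77% and 7.36%, and the blocked shares 4.52%, 8.72% and 7.9%. TNRC6C, a partner of Argonaute, stood at 380.3 ± 15.03 normalized counts in siNeg and 269.7 ± 43.8 with siCENPF, a log2 fold change of -0.51 (SE 0.14, limma adjusted p = 0.251, and 0.00352 with the block). TARBP2, a partner of DICER1, had a log2 fold change of 0.21 with siFOXM1 (limma adjusted p = 0.683).

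Of 16 kinases and adaptors that act on these proteins limma called 0 (2, 1 and 2 at an unadjusted p below 0.05, 0 by edgeR and DESeq2), and the blocked fit 2, 3 and 4. Beside these stand all-gene shares of 5.53%, 7.77% and 7.36% at the unadjusted p and 4.52%, 8.72% and 7.9% with the block. MAPK14, the p38 kinase upstream of the inactivating phosphorylation of KHSRP and ZFP36, stood at 1464 ± 6.80 in siNeg and 1167 ± 124 with siFOXM1. The log2 fold change of MAPK14 was -0.33 (SE 0.10; limma adjusted p = 0.232, and 0.00133 with the block). PPP2CA, a catalytic subunit of the phosphatase PP2A, had a log2 fold change of -0.25 with siCENPF (limma adjusted p = 0.453, and 0.00220 with the block). Of 10 PTB partners and PTB-regulated mRNAs limma called 0 in each comparison with and without the block, as did edgeR and DESeq2, with 0 at an unadjusted p below 0.05. TPM1, whose exons PTB represses, had a log2 fold change of 0.15 with siCENPF (SE 0.08, limma adjusted p = 1.00), and CLTB one of 0.09 (SE 0.11). These are gene totals, and exon use was not measured.

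Promoter sequence was available for 7 of the 10 genes (RefSeq, GRCh38.p14, 250 bases before to 50 after each start) and was searched on both strands for the forkhead word TAAACA and for TTTGAA and TTCGAA, words of the cell cycle homology region. TAAACA was found in 12.3% of all promoters in the table, in 7.73% of those of tested genes and in 1 of the 7 genes, PTBP3. The site is shown because PTBP3 was the member lower with siCENPF, called only in the blocked fit, and not called with siFOXM1. The match is on the opposite strand, so its complement is in capitals; the line gives the gene strand.
PTBP3, chr9:112333020-112333049, minus strand: cgggggagttgcTGTTTAccggcgaggtgg
TTCGAA was found in 1.45% of all promoters, 1.62% of those of tested genes, and in HNRNPD. TTTGAA was found in 15.2% of all promoters, 10.6% of those of tested genes, and in 0 of the 7 genes. For each word the shares count promoter entries, whereas a gene was counted when any of its entries matched. The gene counts are therefore not directly comparable with the shares. The KHSRP window held none of these letters in this order. Nothing about the binding of FOXM1 was measured in these libraries.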

How the data were processed

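PolyA RNA of 12 libraries (4 groups of 3) was sequenced. The submitters' processing notes list bcl2fastq, Trimmomatic, TopHat, edgeR and the hg38 build, with no versions. The authors deposited normalized counts (a signal on a count scale; no source used here names the scaling), FPKM, and 3 edgeR tables that hold, per the file headers, CPM, log2 fold changes, p-values and a likelihood ratio score. Reads were recovered from the deposited CPM: 100% of values were whole within 0.01 reads in each library, and those from FPKM differed at 0 of 172773 values.

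The 14857 genes that reached 10 normalized counts in 3 or more libraries were fitted with limma 3.58.1 (R 4.3.3; trend, robust) on log2(normalized count + 1), which understates the change of low genes, over all 12 libraries with 4 group means. Tests were two-sided, Benjamini-Hochberg adjusted over all genes, threshold 0.05. EdgeR 4.0.16 and DESeq2 1.42.0 were run on the recovered reads. The fits were tested on simulated data drawn without any effect of the replicate number. That test therefore cannot decide between the fits with and without the block. The members and gene lists were chosen with earlier results of these data known. All 10 genes are named, and from each list the 2 genes with the smallest adjusted p over the comparisons against siNeg; other list genes were named after their values were seen. Some genes these rules select are not reported here.

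Same-numbered libraries deviated together: their deviations from group means correlated, across genes, at 0.272 to 0.639 in all 18 pairs, and those of other pairs at -0.510 to 0.0248. The numbers come from the labels. The blocked value is printed where it changes a call.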

Additional observations from a re-analysis of the deposited data

Results flagged for a closer look

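The difference of KHSRP between siCENPF and its control had opposite signs on the 2 backgrounds. The mean log2 ratio of siCENPF to siNeg was -0.16, negative in 3 of 3 pairs, and that of siCENPF+siFOXM1 to siFOXM1 was 0.13, positive in 3 of 3 pairs. The difference between them, the interaction, was 0.29 (SE 0.14). It is a description: KHSRP was chosen on its values in these libraries, so no test of this difference is given. The signs were looked at for every member and for either siRNA, and only KHSRP had opposite signs in all 3 pairs. A pattern singled out in this way can arise by chance. The size of the interaction beside its SE is therefore not read as evidence for a difference.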

How the results depend on the processing

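Of 1130 values of the members under the other settings listed for these tests, 1108 stayed on their side of the threshold, 16 kept the direction and lost the call, 6 gained one and 0 reversed a called direction; 77 of the 1108, never called, differed in sign. Some of these settings could not reverse a direction, because they left the log2 fold change the same. These were the block, the fit of only the groups compared, and leaving out a library of a group not compared. The 1130 values include those of KHSRP, which was chosen on its values. Counts of calls moved more. In the order siCENPF, siFOXM1 and both against siNeg, both against siCENPF, both against siFOXM1 and the interaction, limma called 50, 98, 68, 12, 1 and 0 of all genes and 0, 2, 1, 1, 0 and 0 of the 10. Counts of the 10 include KHSRP, which was chosen on these values, and show nothing about it; without it they are 0, 1, 0, 0, 0 and 0, and 1, 1, 2, 1, 1 and 0 with the block. With the replicate block it called 671, 1295, 1174, 217, 44 and 125 of all genes and 1, 2, 3, 2, 1 and 0 of the 10. DESeq2 called 135, 244, 166, 32, 4 and 21 of all genes, and 2 of the 10 with both against siNeg. With only the groups compared, limma called 6, 41, 35 and 3 in the first 4 comparisons, 1 of the 10 with siFOXM1 and 0 with both against siCENPF. Without any 1 replicate the counts of all genes ran from 21 to 48, 34 to 112, 30 to 80 and 2 to 12 in these 4, lowest without siNeg 2, siFOXM1 3, siNeg 2 and siCENPF+siFOXM1 3, and those of the 10 from 1 to 2 with siFOXM1 and 0 to 1 with both against siCENPF. Fewer samples enter these last 2 settings; the cause of the other moves was not tested. The replicate block changed no other call among the members than those of FUBP1 and PTBP3 given above. Leaving 1 number out of the blocked fit was chosen after seeing the data.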
